A study of Mus musculus with 10 samples.

Results

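This account concerns 10 nuclear genes that shape mitochondria and maintain their genome: Mfn1, Mfn2, Opa1, Dnm1l, Fis1, Pink1, Tfam, Nrf1, Polg and Tfb2m. They were chosen by symbol, and each matched 1 of the 23303 entries of the table. All 10 passed the filter on low values (mean FPKM of at least 1 over the libraries), as did 11651 entries in all. The RNA came from left ventricles of male 129X1/SvJ mice, 5 assigned to CKD (chronic kidney disease) surgery and 5 to Sham surgery, with 1 library per mouse. The title of the series names uremic cardiomyopathy, in which the heart is diseased alongside failing kidneys. The surgical procedure, the age of the mice and the time between surgery and tissue collection are not given in the sources used here, and the labels name no transgene or drug.

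Mitochondria fuse and divide continuously. Fusion of the outer membrane needs the mitofusins and fusion of the inner membrane needs Opa1, whereas division is carried out by a dynamin that is recruited to the outer membrane. Damaged mitochondria are marked for removal by the kinase PINK1, and the mitochondrial genome is copied and transcribed by proteins that are all encoded in the nucleus. Heart muscle, which is densely packed with mitochondria, is known to depend on each of these processes.

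Of the 10 genes, Pink1 was lower in CKD and no other passed the test. Pink1 RNA fell by 22.2% (0.778-fold, 95% confidence interval 0.709 to 0.854, n = 5 mice per group). The change of the other 9 genes lay between 0.923-fold and 1.02-fold, and none of their confidence intervals went below 0.846-fold or above 1.14-fold. Thus 1 of 10 was called lower and 0 of 10 higher at an adjusted p under 0.05 (limma, Benjamini-Hochberg adjustment over all tested genes), where 2.12% of all tested genes were called lower, 3.17% higher and 5.29% in either direction. Without the adjustment, 2 of the 10 had a p under 0.05, against 19.5% of all tested genes. The median change was -0.04 on the log2 scale over the 10 genes and -0.0035 over all tested genes. A negative sign was found for 9 of the 10, and for 5957 of the 11651 tested genes. The signs of Opa1, Tfb2m and Nrf1 turned in some alternative settings.

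The promoter windows of 3 members are shown because they place the called gene beside a pair that was not called. The first belongs to Pink1, the second to Opa1, the other member with a match to the NRF-1 motif, and the third to Tfam, a textbook target of the factor NRF-1 that the gene Nrf1 encodes. Each window is RefSeq sequence of GRCm38.p6, 300 bases long, 5′ to 3′ on the gene's strand, with the annotated start at base 251. Capitals mark matches on either strand to the NRF-1 motif (GCGCA, any base, then GCGC), to CCGGAAG (the ETS family, to which GABP belongs) or to AAGGTCA (the estrogen-related receptors). The windows lie at chr4:138326247-138326546 on the minus strand, chr16:29579084-29579383 on the plus strand and chr10:71237995-71238294 on the minus strand, in that order.
Pink1: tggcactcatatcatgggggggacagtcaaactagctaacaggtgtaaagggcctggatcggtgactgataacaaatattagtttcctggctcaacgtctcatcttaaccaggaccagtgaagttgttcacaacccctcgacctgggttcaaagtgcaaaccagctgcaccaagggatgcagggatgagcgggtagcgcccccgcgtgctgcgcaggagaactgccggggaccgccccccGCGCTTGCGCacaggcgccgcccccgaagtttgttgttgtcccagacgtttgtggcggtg
Opa1: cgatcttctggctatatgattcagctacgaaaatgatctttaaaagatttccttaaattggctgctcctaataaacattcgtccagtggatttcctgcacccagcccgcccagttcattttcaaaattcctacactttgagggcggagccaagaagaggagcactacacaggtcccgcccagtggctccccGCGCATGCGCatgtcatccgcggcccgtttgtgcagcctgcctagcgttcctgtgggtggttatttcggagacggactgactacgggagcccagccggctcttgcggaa
Tfam: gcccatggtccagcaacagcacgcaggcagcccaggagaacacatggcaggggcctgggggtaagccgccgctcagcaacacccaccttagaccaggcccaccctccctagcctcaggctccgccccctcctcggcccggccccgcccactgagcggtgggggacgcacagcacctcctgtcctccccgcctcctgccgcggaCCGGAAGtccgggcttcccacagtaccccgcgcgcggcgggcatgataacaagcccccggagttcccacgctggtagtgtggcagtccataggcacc
The NRF-1 match began 10 bases before the start in Pink1 and 59 before it in Opa1, and the ETS match began 47 bases before the start in Tfam. RefSeq gave 15 such windows for the 10 members. The NRF-1 motif was in a window of 2 of 10 members, and 11.8% of the 8622 tested genes with a window held it. The ETS motif was in a window of 5 of 10 (Dnm1l, Fis1, Mfn1, Polg and Tfam), against 20.3%, and the receptor motif in 0 of 10, against 3.83%. Over all 32851 windows the shares were 4.60%, 8.86% and 4.72%. These are matches of letters, and no binding was measured.

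The most frequent ratio of low values put the relative depth of the libraries at 0.849 to 1.15 times that of Sham 2. Summed FPKM ran from 570509 to 605007. FPKM divides fragments by transcript length and library size, so the reads behind a value are unknown. CKD 1 and Sham 1 stood apart from the rest: their 10 most abundant genes made up 14.8% and 15.3% of all FPKM, where the other 8 libraries had 17.6% to 18.2%. Results that turn on this pair are also given without it. Of 18 cardiomyocyte markers, all were listed and Myh6 and Atp2a2 were at 0 in every library. Such a 0 cannot be read as absent RNA, and whether the authors' quantification dropped these genes was not tested. The summed level of the 18 was 79702 to 99646 FPKM in CKD and 83505 to 99455 in Sham, lowest in CKD 1 and Sham 1. The 5 atrial markers, with Bmp10 at 0 throughout, summed to 6.95 to 11.9 FPKM in CKD and 6.13 to 9.90 in Sham (1 of 3 tested was called, higher).

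Per unit of transcript length, Pink1 was the most abundant of the 10 in Sham ventricles at 432 ± 37.6 FPKM (SD, n = 5), followed by Mfn2, Fis1 and Mfn1. Opa1 (49.1 ± 3.53) and Dnm1l (47.0 ± 2.18) came next, and their ranges overlapped. Polg stood at 20.6 ± 0.807 FPKM, and Tfam (15.6 ± 1.27) and Tfb2m (13.7 ± 1.27) overlapped below it. Nrf1 was lowest at 4.93 ± 0.503 FPKM. In CKD the order of the means was the same. The mean level of Pink1 over all libraries exceeded that of 98.0% of tested genes, and that of Nrf1 exceeded 29.3%.

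**Figure D1:**
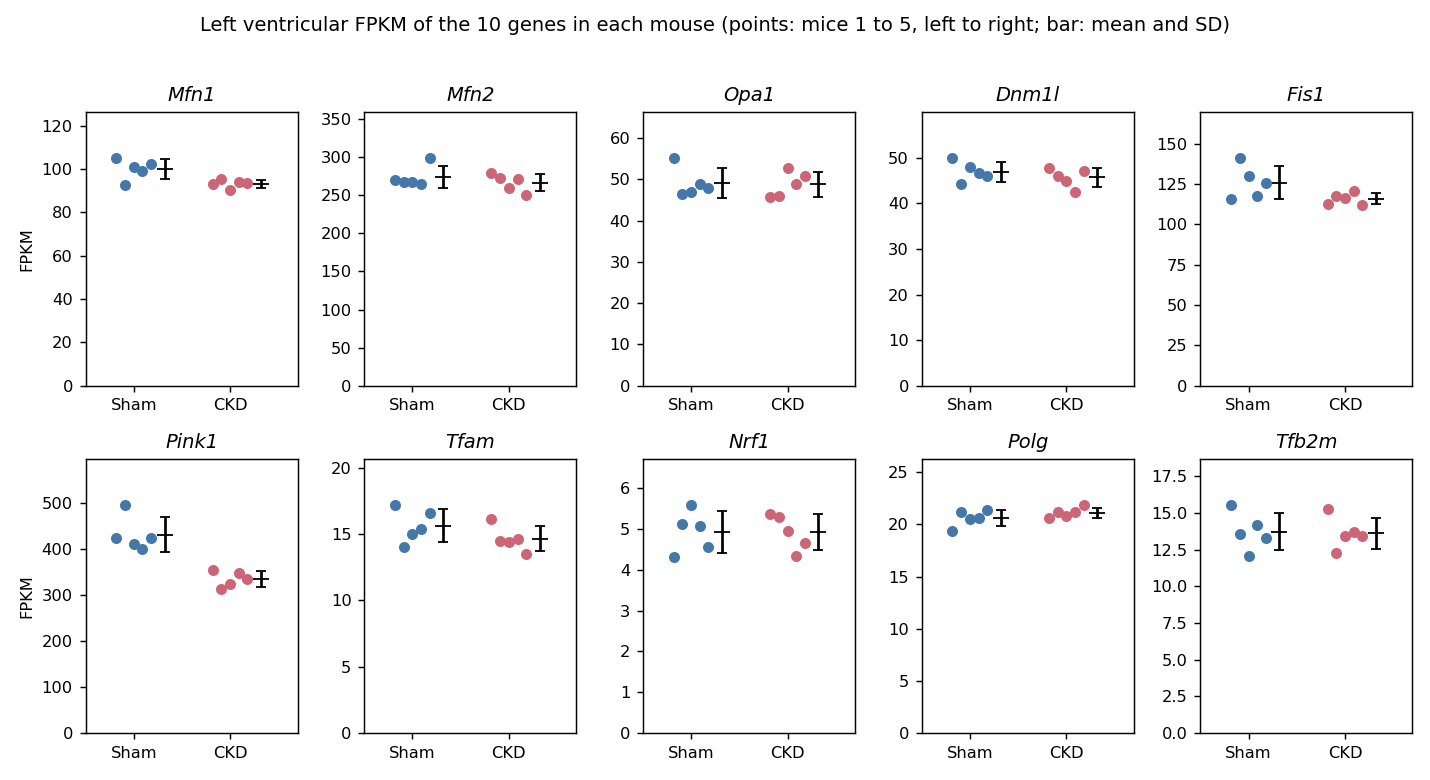
FPKM (vertical axes, each from 0) of the 10 genes in the left ventricle of 5 Sham and 5 CKD mice; each point is a mouse, and the bar gives the group mean and SD. The groups are apart for Pink1 (313 to 356 in CKD, 401 to 497 in Sham) and overlap for the other 9.

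The fusion genes come first. Mfn1 and Mfn2 encode the mitofusins, outer-membrane GTPases that tether and fuse neighbouring mitochondria. Mfn1 (chromosome 3, 32529465 to 32579239 in GRCm38, plus strand) stood at 92.9, 95.3, 90.1, 94.2 and 93.3 FPKM in CKD 1 to 5 and at 105, 92.7, 101, 99.0 and 102 in Sham 1 to 5. Every CKD value was below 4 of the Sham values, and Sham 2 lay within the CKD range. The change was 0.933-fold (log2 -0.10, SE 0.04, 95% interval 0.872 to 0.997), which did not pass after adjustment (limma adjusted p = 0.235).

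Mfn2, which also links mitochondria to the endoplasmic reticulum (chromosome 4, 147873599 to 147904704, minus strand), stood at 279, 272, 260, 271 and 251 FPKM in CKD 1 to 5 and at 270, 267, 268, 265 and 299 in Sham 1 to 5. The groups overlapped, with CKD 5 lowest and Sham 5 highest of all. The change was 0.973-fold (95% interval 0.905 to 1.05, limma adjusted p = 0.721). The Mfn2 level was 2.85 times that of Mfn1 in CKD and 2.73 times in Sham, by the mean of the within-mouse log2 ratios. The difference between the groups in that ratio was within the spread of the mice (0.06 on the log2 scale, SE 0.04, two-sided exact permutation p = 0.238, adjusted over 3 such pairs p = 0.357).

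Opa1 encodes the inner-membrane fusion GTPase, which also holds cristae in shape (chromosome 16, 29579334 to 29654884, plus strand). Its FPKM was 45.8, 45.9, 52.7, 48.8 and 50.9 in CKD 1 to 5 and 55.2, 46.4, 47.0, 48.9 and 47.9 in Sham 1 to 5. The groups overlapped over most of their range, and the highest value of all was Sham 1. The change was 0.995-fold (95% interval 0.906 to 1.09, limma adjusted p = 0.970), and its sign turned without CKD 1 and Sham 1 together (log2 0.057).

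Neither fission gene passed the test. Dnm1l encodes DRP1, the dynamin that constricts mitochondria (chromosome 16, 16312230 to 16358959, minus strand), and stood at 47.8, 46.1, 44.9, 42.4 and 47.1 FPKM in CKD 1 to 5 and at 50.0, 44.1, 47.9, 46.7 and 46.0 in Sham 1 to 5. The ranges overlapped, with CKD 4 lowest and Sham 1 highest, and the change was 0.973-fold (95% interval 0.901 to 1.05, limma adjusted p = 0.739). An antisense gene on the opposite strand, Gm49521, shares 4.67% of the annotated exon bases of Dnm1l. Whether strand was used in counting is not given, so reads of that stretch cannot be told apart.

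Fis1, an outer-membrane adaptor of the fission machinery (chromosome 5, 136953275 to 136966234, plus strand), had 113, 118, 116, 121 and 112 FPKM in CKD 1 to 5 and 115, 141, 130, 118 and 126 in Sham 1 to 5. Sham 2, Sham 3 and Sham 5 were above all CKD values, and Sham 1 and Sham 4 lay within the CKD range. The change was 0.923-fold (log2 -0.12, SE 0.06, 95% interval 0.846 to 1.01), the largest after Pink1, and did not pass (limma adjusted p = 0.288). The within-mouse ratio of Dnm1l to Fis1 differed by 0.08 on the log2 scale (SE 0.09, two-sided exact permutation p = 0.429, adjusted p = 0.429).

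Pink1 encodes the serine-threonine kinase that accumulates on depolarised mitochondria and recruits the ubiquitin ligase parkin (chromosome 4, 138313409 to 138326307, minus strand). It stood at 356, 313, 325, 349 and 335 FPKM in CKD 1 to 5 and at 426, 497, 411, 401 and 425 in Sham 1 to 5. The highest CKD mouse (CKD 1) was below the lowest Sham mouse (Sham 4), so the groups did not overlap. This was so for 1 of the 10 genes, where 7.28% of all tested genes did not overlap in either direction and 3.18% did not overlap with CKD lower. The means were 335 ± 17.5 FPKM for CKD mice and 432 ± 37.6 for Sham mice (log2 -0.36, SE 0.06, limma adjusted p = 0.00629), and Pink1 was number 137 of 11651 in the order of p. Sham 2 was the highest value, and without it the change was -0.31 (limma adjusted p = 0.00789). Without CKD 1 and Sham 1 together it was -0.39 (limma adjusted p = 0.0148). The microRNA genes Gm27646 and Mir7019, on the same strand, share 4.12% and 2.58% of the annotated exon bases of Pink1, and neither has an entry under its own symbol.

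**Figure D2:**
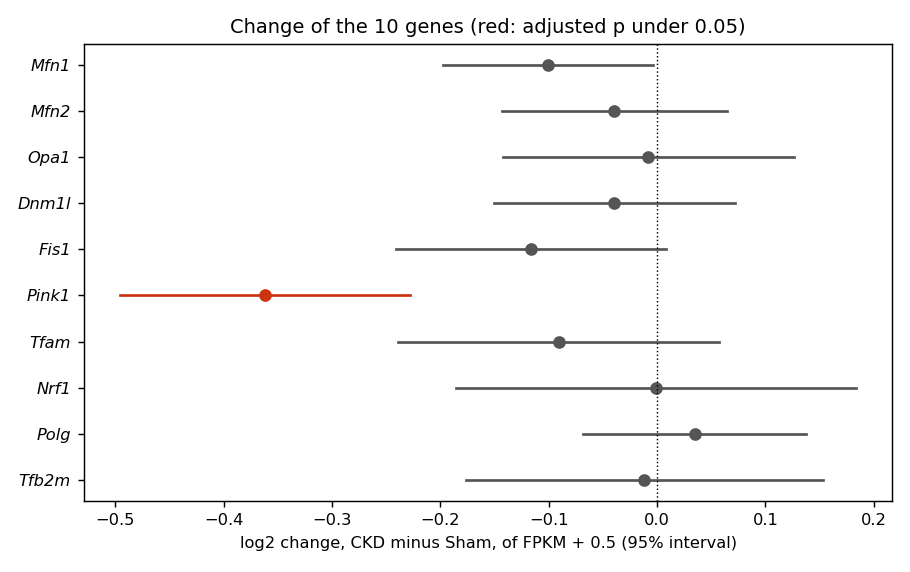
Change of each of the 10 genes (horizontal axis, log2 of FPKM + 0.5, CKD minus Sham; points are estimates, lines 95% confidence intervals, n = 5 per group). Pink1, at -0.36, is the gene past the threshold, and the other estimates lie between -0.12 and 0.03.

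The fall of Pink1 was set against other mitochondrial genes of the same mice, in 3 comparisons chosen after its values were seen. Relative to Mfn2, whose product PINK1 is known to phosphorylate, Pink1 was lower by 0.32 on the log2 scale in CKD (SE 0.07). Relative to Park2, which encodes parkin and stood at 7.87 ± 0.617 FPKM in CKD and 7.20 ± 0.354 in Sham, it was lower by 0.48 (SE 0.07). Relative to the mean of 15 genes of mitochondrial content (citrate synthase, porins, import subunits, chaperones and cytochrome c), it was lower by 0.32 (SE 0.06). For each of the 3 ratios the 5 CKD mice lay below the 5 Sham mice. Since the 3 were chosen with the separation of Pink1 in view, these ratios are a description and carry no test.

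Markers of other cell types moved with this comparison. The summed level of 10 macrophage markers was 381 to 552 FPKM in CKD and 270 to 327 in Sham, and 5 of the 9 tested passed, all higher. Of 10 fibroblast markers 5 passed, all higher (Col1a1, Col1a2, Col3a1, Lum and Mfap5), and Pdgfra, Dcn, Tcf21, Dpt and Gsn were not called. The summed level was 1336 to 1544 FPKM in CKD against 1210 to 1330 in Sham, with the uncalled Gsn and Dcn the most abundant of the 10. The 10 endothelial markers (1319 to 1935 against 1494 to 1763 FPKM) and the 16 tested cardiomyocyte markers had 0 called. The 8 smooth muscle and pericyte markers (232 to 265 against 236 to 268 FPKM), 2 erythroid and 1 adipocyte marker tested had 0 called as well, and all 8 lymphocyte markers were under the filter. None of the macrophage or fibroblast markers was at 0 throughout. Their part in the level of Pink1 was not tested, and in bulk tissue fewer cells of a type and less RNA per cell cannot be told apart.

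None of the 4 genes of genome maintenance and its control passed the test. Tfam encodes the protein that packages mitochondrial DNA and opens its promoters (chromosome 10, 71225464 to 71238280, minus strand), and stood at 16.1, 14.5, 14.4, 14.6 and 13.5 FPKM in CKD 1 to 5 and at 17.2, 14.0, 15.0, 15.4 and 16.6 in Sham 1 to 5. The ranges overlapped, and CKD 1 and Sham 1 were the highest of their groups. The change was 0.939-fold (95% interval 0.847 to 1.04, limma adjusted p = 0.513).

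Tfb2m encodes the factor that melts the promoter for the mitochondrial RNA polymerase (chromosome 1, 179528055 to 179546267, minus strand). It had 15.2, 12.3, 13.4, 13.7 and 13.4 FPKM in CKD 1 to 5 and 15.6, 13.6, 12.1, 14.2 and 13.3 in Sham 1 to 5. Again CKD 1 and Sham 1 were highest, and the groups covered nearly the same range (0.992-fold, 95% interval 0.885 to 1.11, limma adjusted p = 0.962). Relative to Tfam in the same mouse, Tfb2m differed by 0.08 on the log2 scale between the groups (SE 0.06, two-sided exact permutation p = 0.222, adjusted p = 0.357).

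Polg, the catalytic subunit of the mitochondrial DNA polymerase (chromosome 7, 79446231 to 79466362, minus strand), was the 1 member with a positive sign. It stood at 20.6, 21.2, 20.8, 21.2 and 21.9 FPKM in CKD 1 to 5 and at 19.3, 21.2, 20.5, 20.6 and 21.4 in Sham 1 to 5. The groups overlapped, with CKD 1 and Sham 1 lowest, and the change was 1.02-fold (95% interval 0.954 to 1.10, limma adjusted p = 0.755). The coding gene Fanci on the opposite strand shares 8.57% of the annotated exon bases of Polg, and with strand use not given these reads cannot be told apart.

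Nrf1 encodes nuclear respiratory factor 1, a transcription factor for respiratory chain and mitochondrial genome genes (chromosome 6, 30047988 to 30153458, plus strand). Its FPKM was 5.38, 5.30, 4.95, 4.33 and 4.65 in CKD 1 to 5 and 4.32, 5.12, 5.59, 5.07 and 4.55 in Sham 1 to 5. The groups overlapped, with Sham 3 above every CKD value, and the change was 0.999-fold with the widest interval of the 10 (0.879 to 1.14, limma adjusted p = 0.998). Its sign turned in 6 of 20 alternative settings.

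Across the members, CKD 1 and Sham 1 were both the highest of their groups for 3 genes (Dnm1l, Tfam and Tfb2m) and both the lowest for 1 (Polg). These are the 2 libraries whose share of abundant genes differs from the others, and its part in these values was not tested. Without them, Tfam stood at log2 -0.09, Dnm1l at -0.03, Tfb2m at -0.0078 and Polg at 0.02, and none was called.

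**Figure D3:**
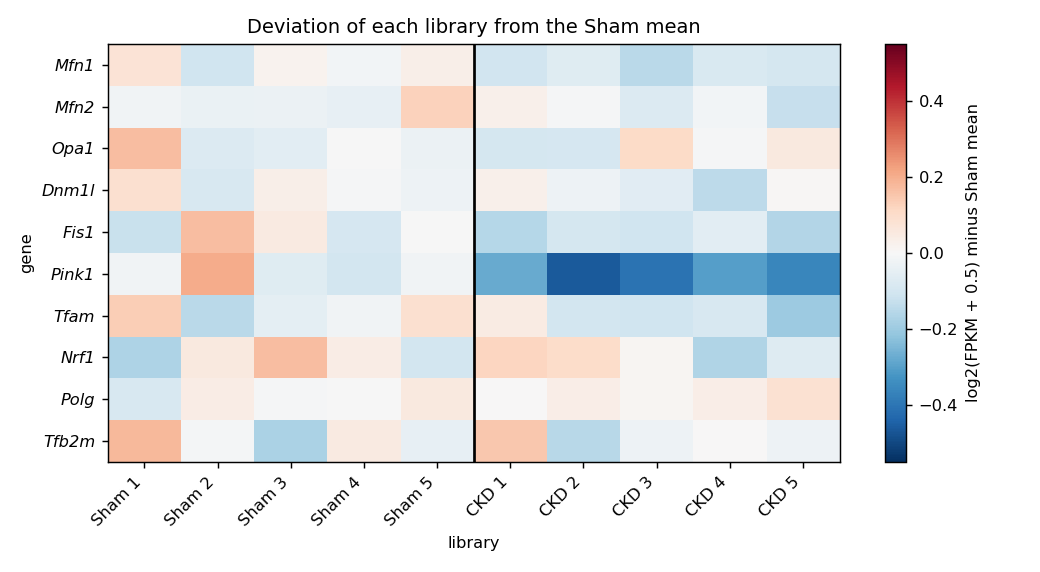
Deviation of each library (columns, 5 Sham left and 5 CKD right) from the Sham mean for each gene (rows), in log2(FPKM + 0.5); blue is lower and red higher. The Pink1 row is blue in all 5 CKD libraries (-0.28 to -0.46), and Sham 1 and CKD 1 share the red of Tfam and Tfb2m.

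Related genes were taken from 8 lists made for this work, of which 7 gave tested genes: 132 symbols in all, 116 found as entries of their own and 112 tested. Among the 112, 2 were called higher and 4 lower, counts near the 3.17% and 2.12% of all tested genes that were called in those directions, with a median change of -0.04 against -0.0035 over all tested genes. The symbols of the 13 protein genes of the mitochondrial genome and of Mterf1a were not found among the entries. Rhot2 and Tymp, which share an entry with a neighbour, were left out.

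Genes of fusion and inner membrane organisation had 0 of 17 called (limma; 1 at an unadjusted p under 0.05; median log2 -0.04). The most abundant were Immt, a core subunit of the complex that forms cristae junctions, at 310 ± 23.9 FPKM in CKD and 319 ± 19.5 in Sham, and Chchd3, of the same complex, at 301 ± 37.0 and 302 ± 32.5. Among 9 fission genes 1 rose and 0 fell (median log2 -0.02): Spire1, an actin nucleator with a mitochondrial isoform. Its FPKM is a value for the whole gene and does not tell that isoform from the others. Spire1 stood at 1.87, 1.93, 1.86, 2.08 and 2.30 FPKM in CKD 1 to 5 and at 1.40, 1.43, 1.44, 1.60 and 1.21 in Sham 1 to 5, so the groups did not overlap (log2 0.39, SE 0.09, limma adjusted p = 0.0319). At this low level the call held only without CKD 1 or Sham 4 among the fits that left out 1 library (limma adjusted p up to 0.0792 in the other 8), and it was lost without CKD 1 and Sham 1 together (0.0599).

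Of 21 mitophagy and mitochondrial transport genes, 1 rose and 0 fell (median log2 0.02). Bnip3, an outer-membrane mitophagy receptor that hypoxia is known to induce, stood at 92.0, 75.4, 79.0, 77.3 and 83.8 FPKM in CKD 1 to 5 and at 70.1, 63.7, 63.0, 73.6 and 63.0 in Sham 1 to 5. The groups did not overlap, and the change was opposite in sign to that of Pink1 (log2 0.29, SE 0.07, limma adjusted p = 0.0297). Bnip3 did not pass when CKD 3 or CKD 5 was left out, nor without Sham 2, without Sham 3 or without Sham 5 (limma adjusted p up to 0.0812), nor with equal summed FPKM (0.0558).

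Of 29 genes of mitochondrial DNA replication and transcription, 0 rose and 1 fell (median log2 -0.07). Mgme1, an exonuclease that trims mitochondrial DNA ends, stood at 4.90, 4.78, 3.90, 4.67 and 4.47 FPKM in CKD 1 to 5 and at 6.53, 5.46, 5.73, 5.82 and 5.80 in Sham 1 to 5. All CKD values were below all Sham values (log2 -0.34, SE 0.08, limma adjusted p = 0.0242). Mgme1 did not pass when CKD 3 or CKD 5 was left out, nor without Sham 1, without Sham 3 or without Sham 4 (limma adjusted p up to 0.0577).

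Of 10 genes of nucleotide supply to mitochondria, 0 rose and 1 fell (median log2 -0.11). Mpv17, an inner-membrane protein whose loss depletes mitochondrial DNA, stood at 70.2, 62.4, 62.6, 63.6 and 62.4 FPKM in CKD 1 to 5 and at 75.8, 72.7, 75.2, 76.3 and 72.7 in Sham 1 to 5. The groups did not overlap (log2 -0.21, SE 0.05, limma adjusted p = 0.0222). Mpv17 did not pass when CKD 2, CKD 3 or CKD 5 was left out, nor without Sham 3 or without Sham 4 (limma adjusted p up to 0.0631), nor with equal summed FPKM (0.0518).

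Nuclear regulators of mitochondrial genes had 0 of 11 called (limma; 2 at an unadjusted p under 0.05; median log2 -0.09). Esrra, an estrogen-related receptor that drives oxidative genes, stood at 59.4 ± 4.24 FPKM in CKD and 69.2 ± 4.00 in Sham, without overlap (log2 -0.22, limma adjusted p = 0.0585). Ppargc1a, which encodes the coactivator PGC-1 alpha, was at 22.4 ± 5.37 and 20.9 ± 2.51 FPKM, a difference within the spread of the mice.

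Of the 15 genes of mitochondrial content, 0 rose and 2 fell (median log2 -0.03). Hspd1, the matrix chaperonin, stood at 195, 186, 190, 194 and 188 FPKM in CKD 1 to 5 and at 213, 218, 227, 219 and 217 in Sham 1 to 5 (log2 -0.20, SE 0.04, limma adjusted p = 0.0104), and it was called in all 21 alternatives. The annotation lists 5 processed pseudogenes of Hspd1, among which the authors' counting could have split reads. Whether it did was not tested. Vdac1, an outer-membrane porin, had a mean of 682 ± 11.8 FPKM in CKD mice and 752 ± 24.1 in Sham mice (log2 -0.14, limma adjusted p = 0.0490). It lost its call without any 1 of the 10 libraries (adjusted p = 0.0645 to 0.124) and in 5 of the other 11 alternatives.

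**Figure D4:**
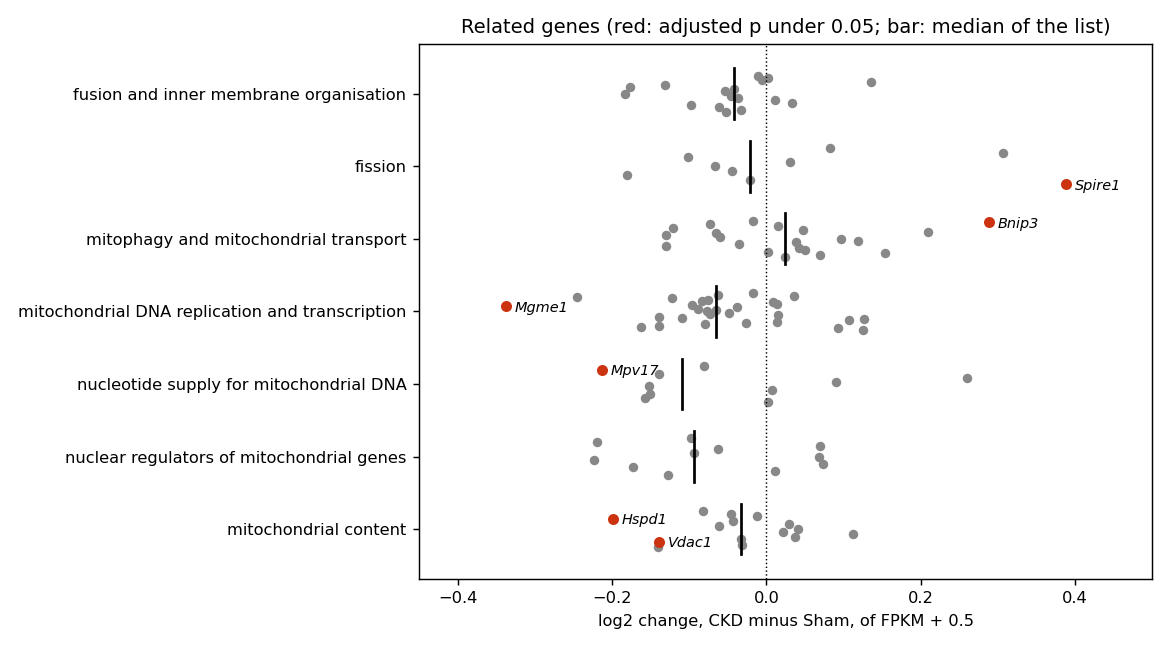
Change (horizontal axis, log2 of FPKM + 0.5, CKD minus Sham) of the 112 tested related genes, by list; each point is a gene, red where the adjusted p is under 0.05, and the bar is the median of the list. The 6 red genes are Spire1 and Bnip3 to the right of 0 and Mgme1, Mpv17, Hspd1 and Vdac1 to the left.

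The genes whose pattern over the 10 libraries was nearest to that of Pink1, by the root mean square difference of the log2 deviations from the Sham mean, were Grcc10 (0.0619), Hadha (0.0635) and Bckdha (0.0656), where the median over tested genes was 0.303. Hadha, the alpha subunit of the mitochondrial trifunctional protein of fatty acid oxidation, had a mean of 452 ± 18.7 FPKM in CKD mice and 588 ± 24.7 in Sham mice (log2 -0.38, limma adjusted p = 0.000962). Bckdha, a subunit of the dehydrogenase of branched-chain keto acids, was at 189 ± 12.0 and 232 ± 12.8 FPKM (log2 -0.30, limma adjusted p = 0.00977). Grcc10, a small gene of the cluster for which it is named, was at 217 ± 9.14 and 265 ± 21.7 FPKM (log2 -0.29, limma adjusted p = 0.0145). They were picked for their likeness to Pink1 on these libraries, so their falls add no separate evidence. Like Pink1, Grcc10 and Bckdha were highest in Sham 2, and all 3 were lowest in CKD 2.

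**Figure D5:**
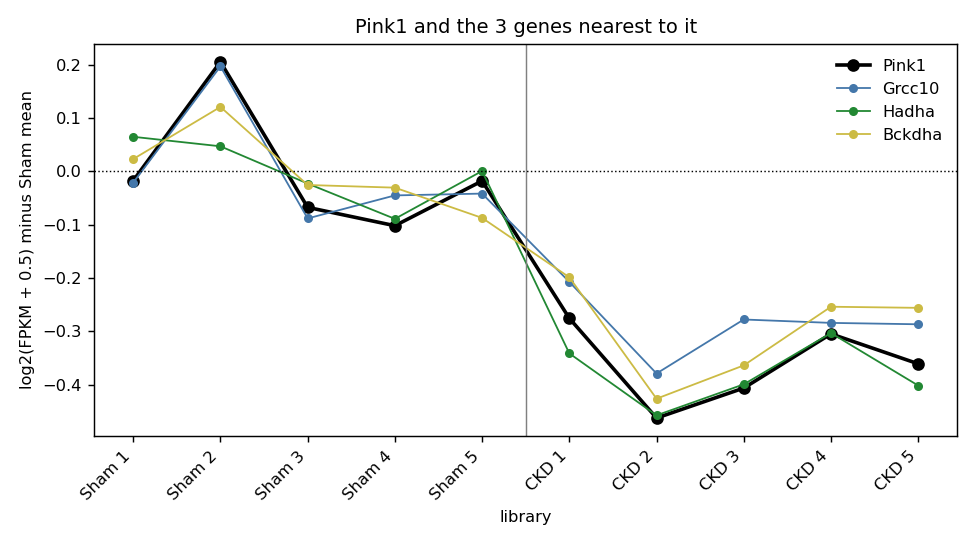
Deviation from the Sham mean (vertical axis, log2 of FPKM + 0.5) of Pink1 and the 3 genes nearest to it in each library (horizontal axis, 5 Sham then 5 CKD). All 4 lines lie below every Sham point in each CKD library and are lowest in CKD 2.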

How the data were processed

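Left ventricular RNA of 10 mice (5 CKD, 5 Sham, by the surgery label) was read on an Illumina HiSeq from TruSeq mRNA libraries, per the labels' protocols. The authors deposited 1 table of FPKM values. The submitters' processing notes list STAR (2.4.0f1), Cufflinks (2.1.1), Cuffdiff (2.1.1), mm10 and hg19, without saying what each was used for. Annotation and strand use are not given in the sources used here. Columns were matched to samples by the identifier in their names. Mice are numbered within groups in accession order, and numbers do not pair them.

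Tests used log2(FPKM + 0.5), which understates changes of low genes, for entries with a mean FPKM of at least 1. CKD and Sham were compared by limma 3.58.1 (R 4.3.3) with trended empirical Bayes variances, two-sided, Benjamini-Hochberg adjusted over 11651 genes, threshold 0.05. Simulated data for 5 CKD against 5 Sham libraries (11651 genes, 200 changed) gave 153 calls, 6 of them false; the share recovered was 20% for 1.25-fold, 80% for 1.5-fold, 94% for 2-fold and 100% for 3-fold changes. The changed genes were picked at random and noise was drawn for each gene apart. Library differences that genes share were thus left out, and the shares do not give the power for any 1 member. The 3 planned ratios of genes were tested by permuting the mice exactly. Relative depth is the most frequent ratio of values of at most 0.2 FPKM between libraries.

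The members and lists were chosen with earlier results of these data known. Named are the members, related genes that passed (up to 6 per list, or the 2 most abundant where none did) and the 3 genes nearest to a called member. Park2, and the genes that the closing section adds, were named after their values were seen. A planned comparison of the mitofusin proteins was not run. Positions are from GENCODE M21 on GRCm38, which mm10 denotes. Alternatives changed the pseudocount (0.1, 1), filter (none, 5), scaling, variance model or weights, or left out libraries.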

Additional observations from a re-analysis of the deposited data

Results flagged for a closer look

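In 3 of 20 groups of 5 mice (10 genes, 2 groups each), 1 library stood apart from the others of its group by Dixon's ratio; chance gives about 1 such group in 20. Pink1 stood at 497 FPKM in Sham 2, where the other Sham mice had 401 to 426. Mfn2 was at 299 FPKM in Sham 5, against 265 to 270 in the other Sham mice. Opa1 was at 55.2 FPKM in Sham 1, against 46.4 to 48.9. Without Sham 2 the change of Pink1 was -0.31 (log2), without Sham 5 that of Mfn2 was -0.0072, and without Sham 1 that of Opa1 was 0.03.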

How the results depend on the processing

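Pink1 was called lower in all 21 alternatives (log2 -0.39 to -0.31, limma adjusted p = 0.00362 to 0.0206), and no other member was called in any; Nrf1 had 20, since its mean was under 5 FPKM. All changes are relative to library size, as FPKM is, and the median change over all tested genes stayed within 0.02 of 0 on the log2 scale. Signs turned for 3 uncalled members. Opa1 was at 0.037 with sample weights and 0.057 without CKD 1 and Sham 1 together, and at -0.036 to 0.035 over the fits leaving out 1 library (0.015 without CKD 1, 0.014 without CKD 2 and 0.035 without Sham 1). Tfb2m was at 0.0016 with sample weights and at -0.055 to 0.033 leaving out 1 library (positive when CKD 2, Sham 1 or Sham 4 was left out, at 0.024, 0.033 and 0.00047). Nrf1 was at 0.00034 under quantile normalization and at -0.043 to 0.042 leaving out 1 library (positive when CKD 4, CKD 5, Sham 2, Sham 3 or Sham 4 was left out, at 0.040, 0.016, 0.012, 0.042 and 0.0091). Over all genes, leaving out 1 library gave 202 to 385 higher and 131 to 290 lower, against 369 and 247, and sample weights gave 511 higher and 400 lower. Fission genes had 0 higher with a mean of at least 5 FPKM (which removed Spire1) and without CKD 1 and Sham 1, and 0 to 1 leaving out 1 library. Mitophagy genes had 0 higher with equal summed FPKM, 2 with sample weights, 2 without CKD 1 and Sham 1, and 0 to 2 leaving out 1 library. Lower calls were 0 for nucleotide supply with equal summed FPKM (0 to 1 leaving out 1 library) and 0 to 1 for replication and transcription leaving out 1 library. They were 1 for fusion with sample weights; 1 for nuclear regulators with equal summed FPKM, quantile normalization and sample weights (0 to 1 leaving out 1 library); and 1 for mitochondrial content with no filter, equal summed FPKM, quantile normalization, no variance trend, without CKD 1 and Sham 1, and leaving out any 1 library. The cause of these shifts was not tested. The 3 planned ratios stayed uncalled in 13 alternatives each. The 3 Pink1 ratios, which were chosen after its values were seen and carry no test, kept their sign (log2 -0.51 to -0.26). No paired analysis was possible because the labels give no numbers that groups share. Depth is known only relative to other libraries.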

Other observations

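Of the 112 related genes tested, 12 had CKD and Sham values that did not overlap (10.7%, against 7.28% of all tested genes), and 10 of the 12 were lower in CKD, where 370 of the 848 such genes among all tested were lower. Besides the 6 called, these were Oma1, Polrmt, Suclg1, Sucla2, Esrra and Vdac3, none of which passed the test. Oma1, the stress-activated protease that cleaves OPA1, had a mean of 24.6 ± 0.619 FPKM in the CKD mice and 28.0 ± 2.07 in the Sham mice (SD, n = 5; log2 -0.18, limma adjusted p = 0.0864). Polrmt, the mitochondrial RNA polymerase, was at 11.6 ± 0.361 and 12.5 ± 0.376 FPKM (log2 -0.11, limma adjusted p = 0.250). Suclg1 and Sucla2, subunits of succinyl-CoA ligase that also bear on mitochondrial nucleotide supply, were at 367 ± 9.04 against 410 ± 31.8 and at 336 ± 13.6 against 373 ± 24.3 FPKM. Vdac3, a porin, was at 164 ± 5.49 against 180 ± 8.31 FPKM.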
